A study of Homo sapiens with 6 samples.

Results

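The NADPH oxidase family was followed at the RNA level in A549, a human lung adenocarcinoma cell line, cultured in 2 kinds of hydrogel. The members are 10 genes given by symbol: the dual oxidases DUOX1 and DUOX2, their maturation factors DUOXA1 and DUOXA2, the oxidases NOX1, NOX4, NOX5 and CYBB, the shared subunit CYBA and the NOX1 organizer NOXO1. They correspond to 11 of the 62703 genes in the deposited table, because NOX5 has 2 gene IDs. The family was picked for the rise of DUOX2 in S-AlgLung, which 1 of 18544 tested genes exceeded. The members' differences between hydrogels are therefore given as a description, without p-values.

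Libraries came from A549 cells in AlgLung hydrogel (3 replicates) and in S-AlgLung hydrogel (3 replicates), all of the same line maintained in DMEM/F12 with fetal bovine serum. The labels do not spell out the S, and the series as a whole is about matrix sulfation. All 6 libraries come from 1 cell line, and the labels give neither the time in the hydrogels nor whether replicates were separate cultures, so the spread between replicates may be technical. Total counts ran from 22978408 to 26495444 per library. S-AlgLung replicate 3 stood apart on the second principal component (28.9% of the variance), at 49.2 against -20.25 and -33.4 for the other S-AlgLung libraries. Several values are therefore given with and without it. Of 6 epithelial markers, all were detected, with summed levels of 10040 to 13220 CPM (TMM-scaled counts per 1e6 library counts) in AlgLung and 4456 to 12000 CPM in S-AlgLung, where the lowest was 8120 CPM without replicate 3. KRT8 (means of 7352 and 5125 CPM in AlgLung and S-AlgLung) and KRT18 (3723 and 2535 CPM) gave most of these sums. EPCAM was low and higher in S-AlgLung (1.951 and 3.825 CPM), and CLDN7 was low and lower there (3.252 and 1.752 CPM). Neither was called with edgeR, although their groups did not overlap, as in 18.4% of all tested genes. Summed endothelial markers were at most 3.77 CPM and fibroblast markers at most 9.27 CPM in any library.

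NADPH oxidases are membrane enzymes that carry electrons from NADPH across the membrane to oxygen and so make superoxide or hydrogen peroxide. The dual oxidases carry calcium-binding EF hands and a peroxidase-like domain, and release hydrogen peroxide at the apical surface of airway, thyroid and gut epithelium. They reach the surface with a maturation factor, and the matched pairs are DUOXA1 with DUOX1 and DUOXA2 with DUOX2. NOX1, NOX4 and CYBB (the catalytic subunit of the phagocyte oxidase) depend on the p22phox protein made from CYBA. NOX1 also needs an organizer (NOXO1), an activator (NOXA1) and the GTPase RAC1, and NOX5 is switched on by calcium directly.

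The 4 dual oxidase genes lie side by side on chromosome 15 (GRCh38, 45092650 to 45165576), each oxidase head to head with its own maturation factor. RefSeq places 153 bases between the starts of DUOX2 and DUOXA2 and 114 bases between those of DUOX1 and DUOXA1. The stretch between DUOX2 and DUOXA2 is shown because both genes have it as upstream sequence. It is on the plus strand of GRCh38.p14, 5′ to 3′, with the match to a motif searched in capitals; all 10 members had a promoter entry in RefSeq. The stretch between DUOX1 and DUOXA1 (chr15:45129880-45129993) is not printed, because in the annotation of the deposited counts these genes overlap by 6 bases and it lies inside 1 gene or the other.
DUOX2/DUOXA2, chr15:45114173-45114325: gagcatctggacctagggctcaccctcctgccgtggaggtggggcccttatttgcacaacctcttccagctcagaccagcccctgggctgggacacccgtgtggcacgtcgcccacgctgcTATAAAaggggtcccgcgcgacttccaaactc

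The 2 stretches differed in their letters. Between DUOX2 and DUOXA2 there was 1 TATA box match (TATAAA), on the DUOXA2 strand, beginning 32 bases before the DUOXA2 start; 6.82% of 35116 RefSeq promoter windows cut to the same length hold this motif on either strand. Between DUOX1 and DUOXA1 there was no TATA match and there were 3 GC box matches (GGGCGG, all on the minus strand), a motif held by 33.3% of windows of that length. The GC content was 63.4% in the DUOX2/DUOXA2 stretch and 80.7% in the DUOX1/DUOXA1 stretch, against medians of 59.5% and 60.5% over all windows of those lengths. CCAAT, the AP-1 motif TGANTCA and the STAT motif TTCNNNGAA, searched on both strands, had no match in either stretch. The searched motifs do not overlap each other in these stretches, and a match is a run of letters, not a binding site.

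DUOX2, which makes hydrogen peroxide, was near 1 CPM in AlgLung and above 10 CPM in every S-AlgLung library. It was at 0.843, 0.405 and 0.952 CPM in AlgLung replicates 1 to 3 and at 17.3, 10.4 and 18.0 CPM in S-AlgLung replicates 1 to 3. These rest on 22, 9 and 23 counts in AlgLung and on 381, 246 and 506 counts in S-AlgLung, and the lowest S-AlgLung value lies far above the highest AlgLung value. The means were 0.733 ± 0.290 and 15.2 ± 4.20 CPM (SD, n = 3). On the log2 scale the difference was 4.35 (SE 0.32), or 20.4-fold, and it was 4.17 without S-AlgLung replicate 3. Of 18544 genes tested, 1 had a higher fold change, TMEM178A, which was named after its values were seen; it had 0 to 2 counts per AlgLung library and 15 to 55 in S-AlgLung. In bulk libraries, more expressing cells and more RNA per cell cannot be told apart.

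DUOXA2, the maturation factor of DUOX2, was higher in every S-AlgLung library as well. Its levels were 0.153, 0.270 and 0.124 CPM in AlgLung, from 4, 6 and 3 counts, and 1.41, 1.18 and 1.56 CPM in S-AlgLung, from 31, 28 and 44 counts. The groups did not overlap, as in 18.4% of all tested genes, with a log2 fold change of 2.91 (SE 0.48, 7.51-fold). DUOXA1, the maturation factor of DUOX1, was at 0.115, 0.315 and 0.373 CPM in AlgLung and at 1.09, 0.929 and 1.10 CPM in S-AlgLung. These groups did not overlap either, and the log2 fold change was 1.96 (SE 0.48, 3.88-fold). DUOXA1 and DUOXA2 run towards each other and share 706 exon bases, 19.0% of the DUOXA1 exon length and 27.7% of that of DUOXA2. Whether counting used strand is unknown here, so part of the reads of each factor cannot be told apart from those of the other. How far the DUOXA1 difference rests on DUOXA2 reads from the shared bases was not tested.

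DUOX1, the second dual oxidase, differed least of the 4 genes. It was at 0.192, 0.450 and 0.662 CPM in AlgLung and at 0.952, 0.676 and 1.35 CPM in S-AlgLung. The groups did not overlap, but by a narrow margin, with 0.662 CPM as the highest AlgLung value and 0.676 CPM as the lowest S-AlgLung value. The log2 fold change was 1.20 (SE 0.47, 2.30-fold), and it ranged from 0.78 without AlgLung replicate 1 to 1.59 without AlgLung replicate 3. Without S-AlgLung replicate 3, which held the highest DUOX1 value, it was 0.87. A gene without a symbol on the other strand, ENSG00000259539, shares 554 exon bases with DUOX1 and had 0.896 times its counts; its own groups overlapped (log2 fold change 0.75). In S-AlgLung, 4 of the 4 cluster genes were lowest in replicate 2, for DUOXA1 from 22 counts there against 24 and 31. The share of all tested genes that were lowest in that library was not computed, so nothing is read from this.

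**Figure D1:**
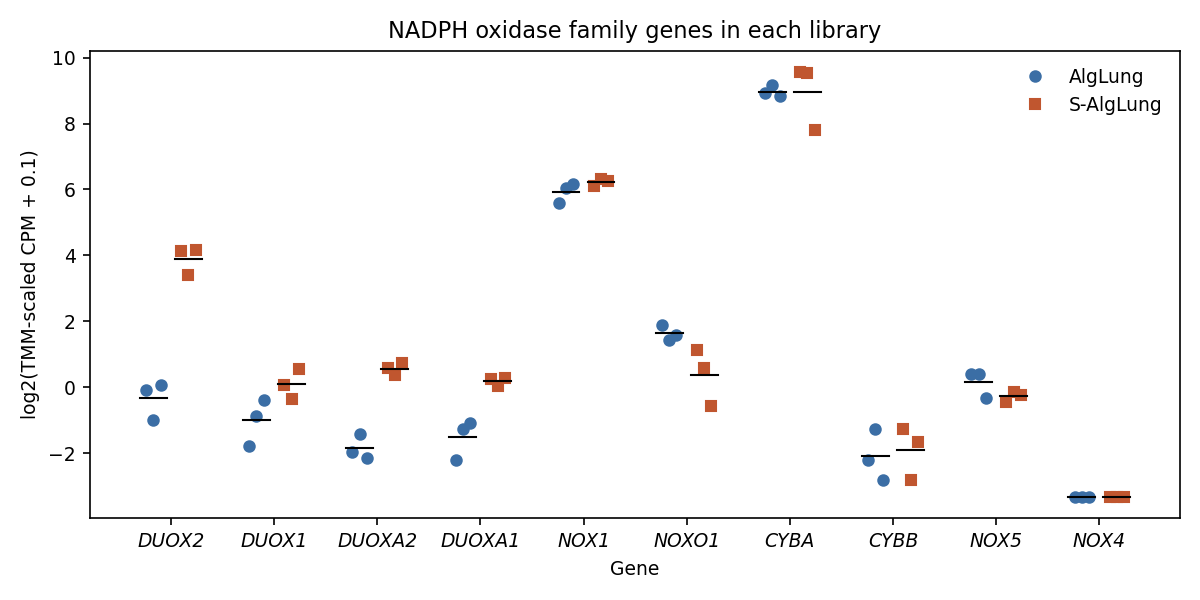
Level of each member in each library, as log2(TMM-scaled CPM + 0.1), with circles for the 3 AlgLung and squares for the 3 S-AlgLung libraries and a bar at the mean of the plotted values. DUOX2 moves from under 1 CPM to between 10.4 and 18.0 CPM, while NOX1 stays between 48.3 and 79.6 CPM and NOX4 is at 0 throughout.

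Of the 9 member rows with enough counts to test, 3 were called higher (DUOX2, DUOXA2 and DUOXA1) and 0 lower at an adjusted p under 0.05 in edgeR's quasi-likelihood test, where 3.15% of all tested genes were called higher and 1.99% lower. Because the members were chosen on this contrast, nothing is read from that count. The low-count filter needed 0.418 CPM in 3 libraries: DUOX1 and DUOX2 reached it in 2 AlgLung libraries and DUOXA1 and DUOXA2 in 0, so these 4 entered the test through S-AlgLung. The DUOXA1 call was lost without AlgLung replicate 1, AlgLung replicate 2 or S-AlgLung replicate 1, where its log2 fold change was 1.53, 2.08 and 1.92. Without S-AlgLung replicate 3 the number of members called was 3.

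**Figure D2:**
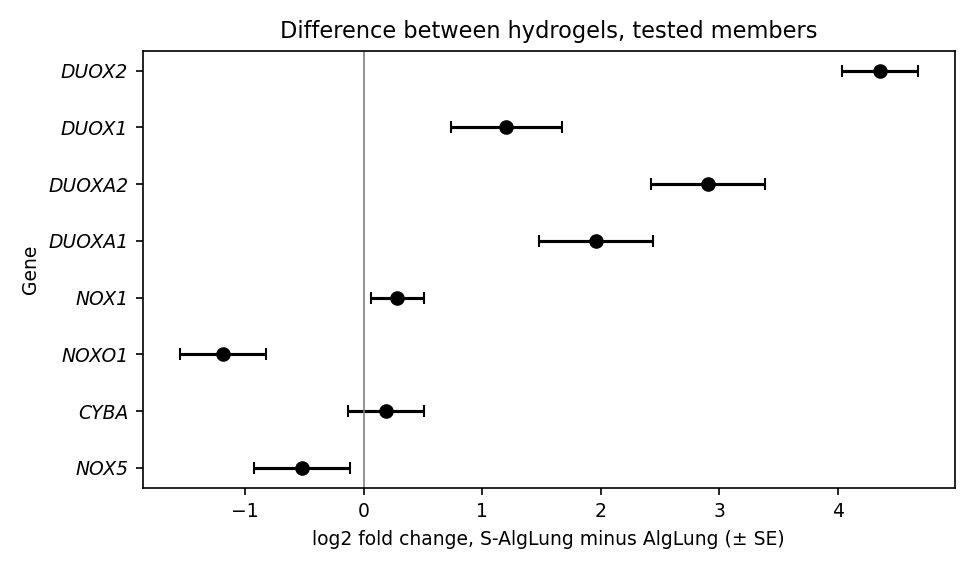
Log2 fold change (S-AlgLung minus AlgLung) of the tested members, with the standard error of the fit as bars; NOX5 is drawn for 1 of its 2 IDs. The 4 dual oxidase cluster genes lie above 1, NOXO1 lies at -1.18, and NOX1, CYBA and NOX5 lie between -0.52 and 0.29.

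The share of dual oxidase reads that came from DUOX2 differed between the hydrogels. Because the family was picked for the rise of DUOX2, a higher share, or ratio to DUOXA2, in S-AlgLung follows from that choice. These values are a description. In AlgLung, DUOX2 gave 81.5%, 47.4% and 59.0% of the DUOX1 and DUOX2 counts, with exact 95% binomial intervals of 61.9 to 93.7%, 24.4 to 71.1% and 42.1 to 74.4%. In S-AlgLung the shares were 94.8%, 93.9% and 93.0%, with intervals of 92.1 to 96.7%, 90.3 to 96.5% and 90.5 to 95.0%. All S-AlgLung shares were above all AlgLung shares, although the interval of AlgLung replicate 1, from 27 counts, reaches into theirs; intervals cover counting error only. Per kilobase of exon, the ratio of DUOX2 to DUOXA2 was 1.45, 0.396 and 2.02 in AlgLung and 3.24, 2.32 and 3.03 in S-AlgLung. The ratio of DUOX1 to DUOXA1 went the other way, from 0.706, 0.605 and 0.753 in AlgLung to 0.371, 0.308 and 0.519 in S-AlgLung. Both sets of ratios were free of overlap between hydrogels and rest on 3 to 9 counts of the maturation factor in each AlgLung library. DUOX1 itself had 5, 10 and 16 counts in AlgLung. Since DUOXA1 and DUOXA2 share exon bases, reads of either factor may enter the ratio of the other.

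NOX1, a superoxide-producing oxidase of colon epithelium, was the most abundant catalytic gene of the family in both hydrogels and overlapped between them. Its levels were 48.3, 65.5 and 71.2 CPM in AlgLung and 69.0, 79.6 and 76.8 CPM in S-AlgLung, a log2 fold change of 0.29 (SE 0.23). Per kilobase, NOX1 made up 98.8 to 99.1% of the summed level of NOX1, CYBB, NOX4, NOX5, DUOX1 and DUOX2 in AlgLung and 93.1 to 96.2% in S-AlgLung. DUOX2 made up 0.161 to 0.454% of that sum in AlgLung and 3.30 to 6.14% in S-AlgLung. NOX1 therefore exceeded DUOX2 per kilobase by 217, 615 and 284 times in AlgLung and still by 15.2, 29.1 and 16.2 times in S-AlgLung. The changes in the DUOX2 share and in this ratio restate the DUOX2 rise for which the family was picked.

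NOXO1, the organizer that ties NOX1 to its activator, was lower in every S-AlgLung library. Its levels were 3.56, 2.61 and 2.90 CPM in AlgLung, from 93, 58 and 70 counts, and 2.09, 1.39 and 0.569 CPM in S-AlgLung, from 46, 33 and 16 counts. The groups did not overlap, as in 18.4% of all tested genes, and the log2 fold change was -1.18 (SE 0.37), which did not pass the threshold. It was -0.84 without S-AlgLung replicate 3, the library with the lowest value, and it passed the threshold without S-AlgLung replicate 1 (-1.64) or S-AlgLung replicate 2 (-1.23). The ratio of NOX1 to NOXO1 per kilobase was 11.5, 21.3 and 20.9 in AlgLung and 28.1, 48.5 and 115 in S-AlgLung. Of the NOXO1 exon length, 98.8% is shared with TBL3 on the opposite strand, with 27.0 times as many counts. As the use of strand is unknown, an unknown part of the NOXO1 reads, up to nearly all, may belong to TBL3. The level of NOXO1, its ratio to NOX1 and its place among the members carry this limit. TBL3 itself was at a log2 fold change of 0.21 with overlapping groups.

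**Figure D3:**
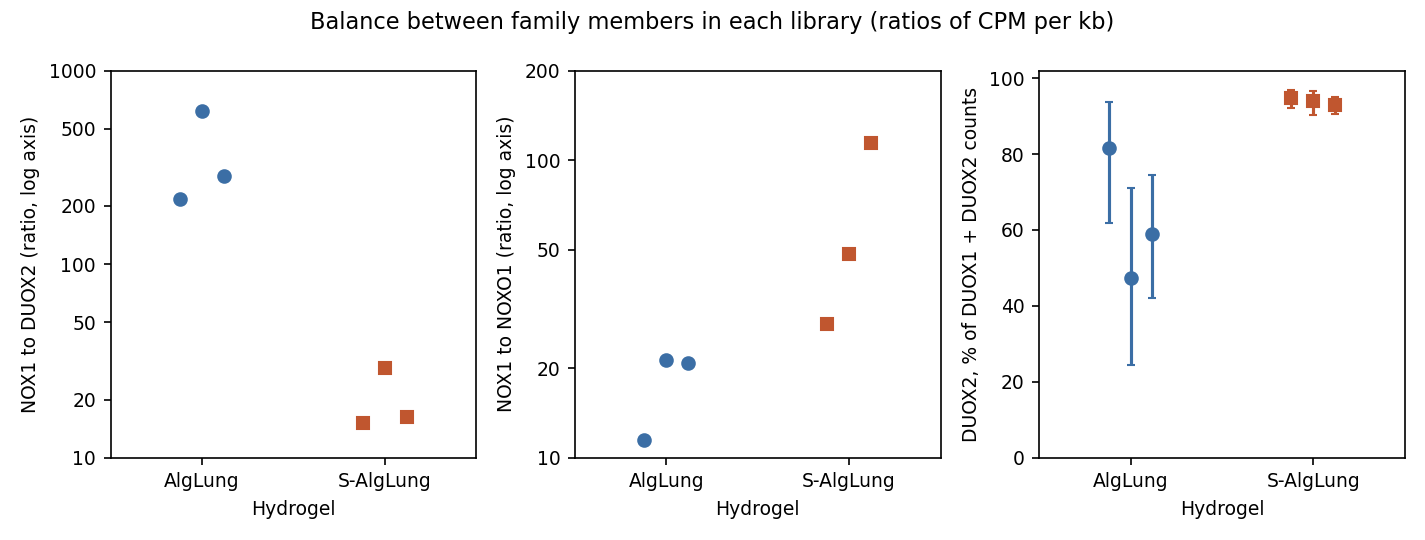
Ratio of NOX1 to DUOX2 and of NOX1 to NOXO1 (CPM per kilobase, log axes), and DUOX2 as a percentage of DUOX1 and DUOX2 counts with exact 95% intervals, for each library. NOX1 exceeds DUOX2 by 217 to 615 times in AlgLung and 15.2 to 29.1 times in S-AlgLung, and in each panel the 3 points of a hydrogel do not overlap those of the other. The panels that include DUOX2 restate the rise for which the family was picked, and NOXO1 reads may include TBL3 reads.

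CYBA, the p22phox subunit shared by NOX1, NOX4 and CYBB, was the most abundant member and was split within S-AlgLung. It was at 486, 574 and 453 CPM in AlgLung and at 758, 740 and 226 CPM in S-AlgLung. Replicates 1 and 2 of S-AlgLung were above every AlgLung library and replicate 3 was below every one. The log2 fold change was 0.19 (SE 0.32), 0.54 without S-AlgLung replicate 3, and -0.06 and -0.04 without S-AlgLung replicates 1 and 2. Per kilobase, CYBA exceeded NOX1 by 6.15, 5.35 and 3.89 times in AlgLung and by 6.72, 5.68 and 1.80 times in S-AlgLung.

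The remaining oxidases were at or near 0. NOX4, which makes hydrogen peroxide constitutively in kidney, vessel wall and fibroblasts, had 0 counts in all 6 libraries, which allows up to 0.107 to 0.136 CPM per library (3 counts). CYBB, the phagocyte oxidase, had 25 counts in all, at 0.115, 0.315 and 0.0414 CPM in AlgLung and 0.317, 0.0422 and 0.213 CPM in S-AlgLung, and was too low to test. Among 6 leukocyte markers, PTPRC, CSF1R and CD3E had 2 to 5 counts each over all libraries and SPI1 had 10, while CD14 (32.8 ± 4.14 and 59.1 ± 14.3 CPM, SD, n = 3; edgeR adjusted p = 0.0225) and ITGAM (2.23 ± 0.438 and 4.39 ± 0.688 CPM; edgeR adjusted p = 0.0405) were higher in S-AlgLung. The summed leukocyte markers were at 32.8 to 39.4 CPM in AlgLung and 48.1 to 74.3 CPM in S-AlgLung; their part in any difference of the members was not tested.

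NOX5, the calcium-activated oxidase, was near 1 CPM. Both of its gene IDs held the same 32, 27, 17, 14, 19 and 21 counts and share 8819 exon bases on the same strand, so they are 1 measurement. It was at 1.23, 1.21 and 0.704 CPM in AlgLung and 0.635, 0.802 and 0.746 CPM in S-AlgLung, with overlapping groups and a log2 fold change of -0.52 (SE 0.40).

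Per kilobase of exon, DUOX2 went from rank 5 of the 10 genes in AlgLung to rank 3 in S-AlgLung. Its move up the order restates the rise for which the family was picked. In AlgLung, CYBA (121 CPM per kilobase), NOX1 (24.2) and NOXO1 (1.40) were each separated from the next gene in the order. NOX5, DUOX2, DUOXA1, DUOXA2, DUOX1 and CYBB followed at means from 0.0857 down to 0.0327 CPM per kilobase, and each neighbouring pair among them overlapped. In S-AlgLung, CYBA (138) and NOX1 (29.5) again led and did not overlap. DUOX2 came next at 1.57 CPM per kilobase, clear of NOXO1 at 0.625, which overlapped DUOXA2 at 0.543. DUOXA1 (0.279) and DUOX1 (0.113) followed without overlapping their neighbours, and NOX5 and CYBB overlapped each other. NOX5 was ranked here by its ID with 12233 exon bases. By its other ID, with 9137, it was at 0.0695 to 0.0878 CPM per kilobase in S-AlgLung. It then overlapped DUOX1, whose lowest value was 0.0769, and not CYBB, whose highest was 0.0660. Exon length here counts every isoform in the annotation, which sets the scale of these levels.

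Genes around the cluster were compared with it because they were not used to choose the members. SORD, sorbitol dehydrogenase, ends 15465 bases from the DUOX2 side of the cluster and was at 25.2, 27.2 and 29.8 CPM in AlgLung and 37.2, 45.4 and 49.0 CPM in S-AlgLung. Its groups did not overlap, as in 18.4% of all tested genes, but the log2 fold change of 0.68 (SE 0.21) did not pass edgeR's threshold (adjusted p = 0.0588). Without S-AlgLung replicate 3, the library with the highest SORD value, it was 0.56 (edgeR adjusted p = 0.0645). SHF, an adaptor protein gene that ends 1638 bases beyond DUOX1, had overlapping groups (log2 fold change 0.34, SE 0.28, edgeR adjusted p = 0.666). SLC28A2-AS1 was at -0.28 (SE 0.44, edgeR adjusted p = 0.866). The other 3 of the 6 nearest genes with a symbol (RNU1-78P, Y_RNA and H3P39) had 0 counts. With the DESeq2 Wald test SORD was called higher (log2 fold change 0.66, adjusted p = 0.0333). SHF and SLC28A2-AS1 were not called with edgeR, and the differences between them and the cluster genes were not tested.

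**Figure D4:**
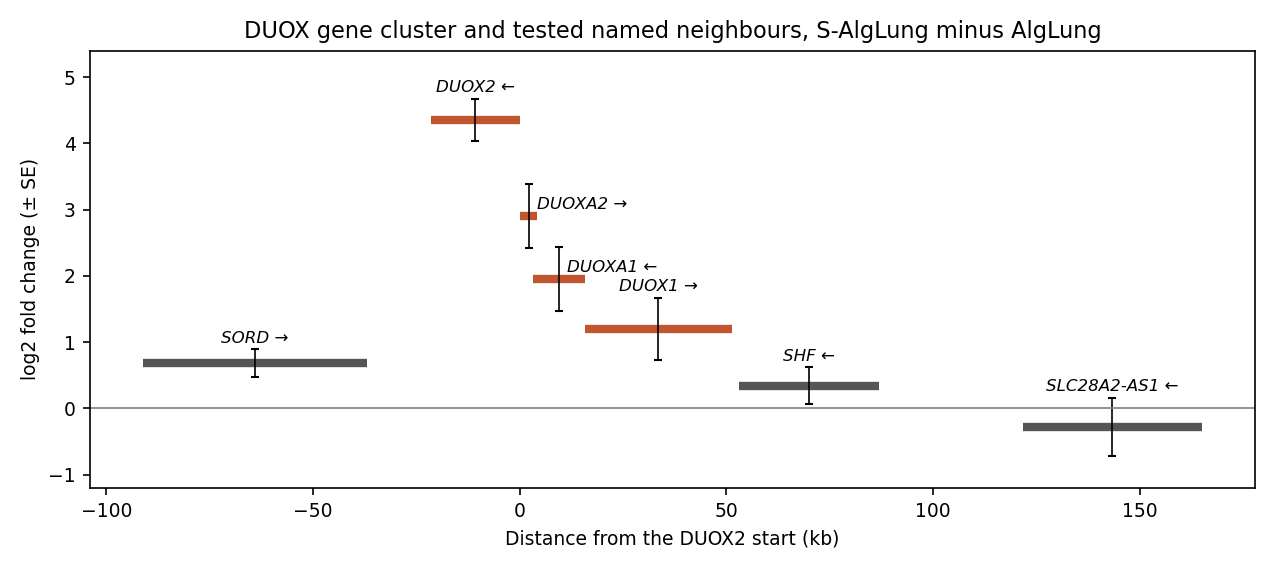
Log2 fold change (± SE) of the dual oxidase cluster and its tested named neighbours, drawn along the chromosome as distance from the DUOX2 start in kilobases, with arrows for the strand. The fold changes step from 4.35 at DUOX2 through 2.91, 1.96 and 1.20 at DUOXA2, DUOXA1 and DUOX1, and the neighbours lie between -0.28 and 0.68.

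The other genes of the oxidase pathway, in 5 lists, did not pass the test between hydrogels. Of 66 listed genes, 50 were tested and 0 were called with edgeR, where 5.14% of all tested genes were called. At an unadjusted p under 0.05 there were 7 of these 50 (14.0%, against 14.9% of all tested genes), and 1 was called with DESeq2 and 0 with limma-voom. Their median log2 fold change was -0.04, against 0.03 for all tested genes. Groups without overlap, given below for some pathway genes, were found in 18.4% of all tested genes. Of the members of the NOX complexes outside the family list, NOXA1, the NOX1 activator, was at 12.2 ± 3.89 CPM in AlgLung and 14.0 ± 4.45 CPM in S-AlgLung (SD, n = 3). RAC3, a Rac GTPase, was at 22.2 ± 7.52 and 40.2 ± 18.0 CPM (log2 fold change 0.86, SE 0.28, edgeR adjusted p = 0.0751). Its call depended on the libraries: without S-AlgLung replicate 3 it passed at 1.11 (edgeR adjusted p = 4.793e-06) and without S-AlgLung replicate 2 at 0.85 (edgeR adjusted p = 0.0434). SH3PXD2B, an organizer-like scaffold, was at 0.45 (SE 0.23, edgeR adjusted p = 0.349). The phagocyte subunit genes NCF1 and NCF4 and the GTPase RAC2 had too few counts to test, and NOX3 had 0.

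Of 17 enzymes that remove superoxide and peroxide, 16 were tested and 0 passed with edgeR (median -0.13; 1 at an unadjusted p under 0.05, 0 with DESeq2 and 0 with limma-voom). CAT, catalase, was at 36.2 ± 3.21 CPM in AlgLung and 24.6 ± 2.23 CPM in S-AlgLung (SD, n = 3), without overlap, at a log2 fold change of -0.56 (SE 0.21, edgeR adjusted p = 0.152); without S-AlgLung replicate 3 it passed at -0.66 (edgeR adjusted p = 0.0268). PRDX3, the mitochondrial peroxiredoxin, was at -0.40 (SE 0.23, edgeR adjusted p = 0.454). Of 7 genes of NADPH supply, 0 passed (1 at an unadjusted p under 0.05, 0 with DESeq2 and 0 with limma-voom). Within them IDH1, cytosolic isocitrate dehydrogenase, was at -0.59 (SE 0.24, edgeR adjusted p = 0.205) and ME1, malic enzyme, at -0.21 (SE 0.23, edgeR adjusted p = 0.767).

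Genes that use or pass on hydrogen peroxide were mostly low. Of 14 listed heme peroxidases, thiocyanate carriers and peroxide channels, 6 were tested and 0 passed (2 at an unadjusted p under 0.05, 0 with DESeq2 and 0 with limma-voom). LPO, the lactoperoxidase that pairs with airway dual oxidases, was at 1.46 ± 0.217 CPM in AlgLung and 1.36 ± 0.323 CPM in S-AlgLung (SD, n = 3). LPO shares 110 exon bases with MKS1 on the opposite strand, with 6.55 times as many counts. CFTR, a chloride and thiocyanate channel, was at 1.37 ± 0.366 and 2.50 ± 0.398 CPM without overlap (log2 fold change 0.86, SE 0.33, edgeR adjusted p = 0.176). ANO1, a calcium-activated chloride channel, was at 0.842 ± 0.301 and 0.330 ± 0.108 CPM without overlap (log2 fold change -1.36, SE 0.48, edgeR adjusted p = 0.115). AQP3, a channel for water, glycerol and hydrogen peroxide, was at 986 ± 234 and 1262 ± 326 CPM with overlapping groups.

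Of 16 receptors and transcription factors known to act on DUOX genes in epithelium or thyroid, 13 were tested and 0 passed (2 at an unadjusted p under 0.05, 1 with DESeq2 and 0 with limma-voom). IL4R, a receptor chain for interleukins 4 and 13, was at 13.1 ± 0.186 CPM in AlgLung and 21.1 ± 2.85 CPM in S-AlgLung (SD, n = 3), without overlap (log2 fold change 0.69, SE 0.21, edgeR adjusted p = 0.0588). It was the gene called with DESeq2 (adjusted p = 0.0352), and with edgeR without S-AlgLung replicate 2 (adjusted p = 0.0439). IFNGR1, an interferon gamma receptor chain, was called lower with edgeR without S-AlgLung replicate 3 (log2 fold change -0.64, adjusted p = 0.0359), and was named after that call was seen. JAK2, a kinase of the interferon gamma receptor, was at -0.59 (SE 0.28, edgeR adjusted p = 0.320). NKX2-1, NOD2 and TLR5 had too few counts to test.

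**Figure D5:**
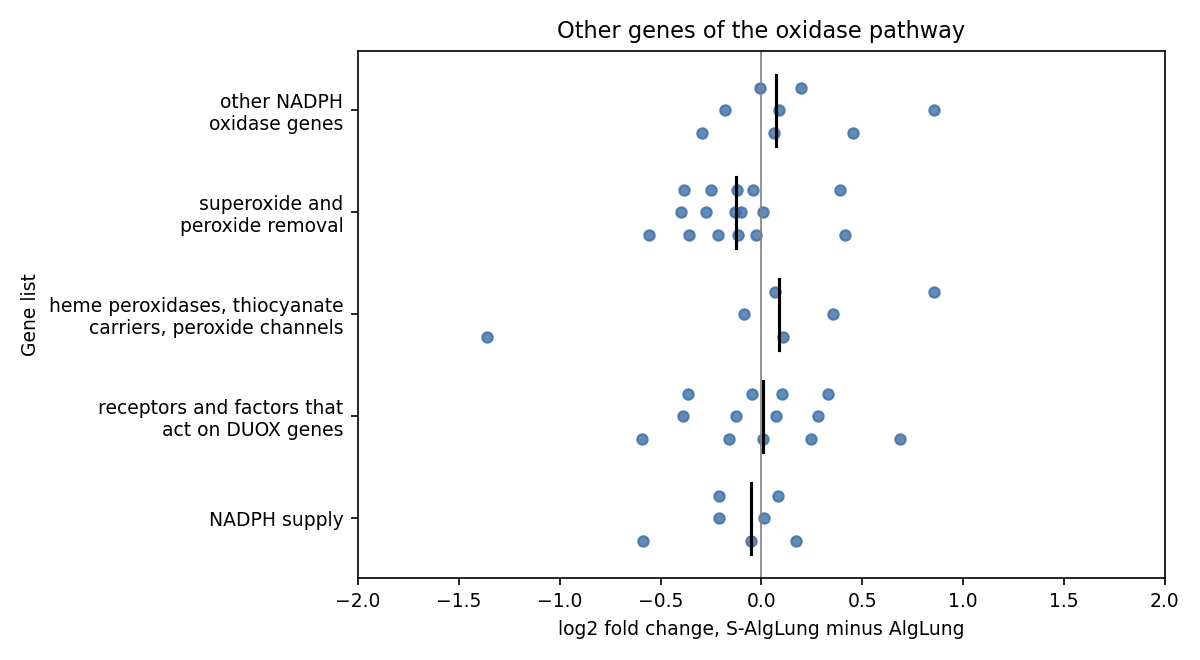
Log2 fold change (S-AlgLung minus AlgLung) of the tested genes in 5 pathway lists, 1 point a gene, with a bar at each list's median. The medians lie between -0.13 and 0.09, with ANO1 lowest at -1.36 and RAC3 and CFTR highest at 0.86.

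The genes whose levels followed DUOX2 most closely over the 6 libraries were ranked by Pearson's r of log2 CPM among 14231 genes with a symbol and a mean log2 CPM of at least 0. FAM83E (r = 0.997), MAPRE2 (0.994), B4GALNT3 (0.993), ENPP1 (0.992) and SPOCK1 (0.991) came out highest. The 6 points fall in 2 groups, so these values mostly carry the difference between hydrogels and are a description. FAM83E was at 0.882, 0.630 and 0.911 CPM in AlgLung and 2.22, 1.86 and 2.27 CPM in S-AlgLung, lowest in replicate 2 of each hydrogel as DUOX2 was. Its log2 fold change was 1.38, given with no test because these genes were picked for following DUOX2. MAPRE2, a microtubule end-binding protein gene, differed by 0.58, ENPP1, an ectonucleotide pyrophosphatase gene, by 1.44 and B4GALNT3, a glycosyltransferase gene, by 1.68. SPOCK1, a proteoglycan gene, differed by 2.02, less than DUOX2 at 4.35.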

How the data were processed

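RNA was sequenced from 6 libraries of A549 cells, 3 per hydrogel. Per the submitters' processing notes, the authors used STAR 2.7.3a with GRCh38 and featureCounts; the counting version, gene annotation and use of strand are not given in these notes. The deposited file gives whole-number counts per gene without normalization, beside each gene's exon length. AlgLung replicate 1 had 2 columns that differed in 0 genes and were used as 1 sample. Of 62703 gene IDs, 62625 matched the name table.

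Genes passing filterByExpr (minimum count 10; 18544 genes) were TMM-scaled and compared by edgeR's quasi-likelihood test (edgeR 4.0.16, R 4.3.3) over all 6 libraries without a block, with Benjamini-Hochberg adjustment over all tested genes and a threshold of 0.05. SE is the absolute log2 fold change over the square root of F. Alternatives were DESeq2 1.42.0 (size factors, Wald test), total counts, limma-voom (limma 3.58.1), other low-count filters, a replicate block, each library left out, and a threshold of 0.01. The script was tested on simulated data. Members and lists were chosen with earlier results of these data known. Named genes were all members, called genes of a pathway list or the 2 with the smallest p where none was called, the 3 nearest genes with a symbol on each side of the DUOX cluster, and the 5 genes most correlated with DUOX2. Other genes (such as NOXA1, AQP3, LPO and TBL3) were named for their role or overlap after their values were seen, and 1 listed gene is not reported here. Genes under about 1 CPM rest on few counts and are the least precise.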

Additional observations from a re-analysis of the deposited data

How the results depend on the processing

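Across the alternatives the log2 fold change was 4.07 to 4.56 for DUOX2, 2.65 to 3.27 for DUOXA2 and 1.53 to 2.23 for DUOXA1; these genes were chosen on this contrast or entered the test through S-AlgLung, so the ranges describe the settings and support no call. NOXO1 was called in 5 of 13 (-1.64 to -0.84) and DUOX1, NOX1, NOX5 and CYBA in 0. The filter at a mean of 1 CPM left DUOX1, DUOXA1, DUOXA2 and NOX5 untested. CYBA alone changed sign among these members (-0.06 to 0.54). Of the pathway genes, 0 were called as reported, 1 with DESeq2's Wald test (IL4R), 1 without a low-count filter (RAC3), and 0 to 3 with 1 library left out. Over all genes, 953 were called as reported, 540 at a threshold of 0.01, and 545 to 1553 with 1 library left out (1553 without S-AlgLung replicate 3). Total-count scaling moved the median of all genes from 0.03 to -0.07. With the replicate number as a block in edgeR, 1300 genes were called. Among them were SORD (0.67, edgeR adjusted p = 0.0194), 2 pathway genes (RAC3 and IL4R) and 4 member rows (NOXO1 added). Same-numbered libraries deviated together at correlations of 0.0721, 0.285 and 0.0413, and 3 of 6 correlated best with their own number. With 6 libraries, these values cannot show whether the numbers pair the samples. CYBB and the dual oxidase genes in AlgLung are limited by depth.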
